A study of Mus musculus with 9 samples.

Results

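Genes of cholesterol and fatty acid synthesis were examined in SIX2 nephron progenitors that lacked mt complex III subunit QPC. The 28 genes were chosen by function, by gene symbol, out of 26858 genes in the table of read counts. They comprise 23 genes of the sterol branch, which are 18 enzymes, the sterol carrier *Stard4* and the regulators *Srebf2*, *Scap*, *Insig1* and *Insig2*. The fatty acid branch holds the other 5 genes, which are *Srebf1* and the enzymes *Acaca*, *Fasn*, *Scd1* and *Scd2*. All 28 genes passed the filter on low counts.

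Cells were sorted by the eGFP/Cre fusion protein that a bacterial artificial chromosome transgene expresses from the *Six2* promoter, at age E18.5, late in gestation. Control cells came from Six2-Qpc heterozygous mice (Six2-Qpc+/−, 4 libraries, replicates 71, 72, 73 and 76). Mutant cells came from Six2-Qpc knockout mice (Six2-Qpc−/−, 5 libraries, replicates 74, 75, 77, 78 and 79), in which both *Qpc* alleles were floxed. Both groups carried the transgene and at least 1 targeted allele, so no group here had intact *Qpc*. The labels do not say whether each library came from a separate animal. If the libraries of a genotype were repeats from the same animal, the p-values measure technical spread only.

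Cholesterol is built from acetyl-CoA. The mevalonate steps lead to farnesyl diphosphate, which also feeds protein prenylation and the side chain of ubiquinone, the lipid whose reduced form mt complex III oxidizes. The later steps make squalene, close it to lanosterol and convert lanosterol to cholesterol, with several steps that consume oxygen and NADPH. Most of these genes are known targets of SREBP transcription factors, which SCAP escorts from the endoplasmic reticulum for activation when sterols are scarce and which INSIG proteins retain when sterols are plentiful.

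Promoters were compared first, since SREBP proteins are known to act there together with NF-Y and Sp1. RefSeq sequences of build GRCm38.p6, from 250 bases before to 50 bases after the start site, were found for 22 of the 28 genes. The sterol regulatory element core TCACNCCAC, read on both strands, occurred in 1 of 22, *Hmgcs1*, and in 1.39% of 10475 tested genes with a promoter sequence. The NF-Y box CCAAT occurred in 19 of 22 and in 42.4% of those tested genes. The Sp1 box GGGCGG occurred in 19 of 22 and in 68.9%, the E-box CACGTG in 5 of 22 and in 11.6%, and the ATF4 element TGATGNAA in 2 of 22 and in 2.65%. Over all 27025 genes with a promoter sequence the shares were 1.44%, 41.1%, 38.2%, 8.09% and 4.51%. These are matches of letters, not binding sites, and genes with several start sites had more sequence to match. 3 promoters are shown, with matches of the sterol element, the NF-Y box and the Sp1 box in capitals. Bases at the downstream end that lie in an annotated exon of the same gene were removed. Exons of other genes were not checked. *Hmgcs1* (chr13:119690101-119690350, plus strand) is shown for its sterol element, which starts 137 bases before the start site, *Mvk* (chr5:114444019-114444268, plus strand) for its 5 NF-Y boxes, and *Lss* (chr10:76531355-76531587, plus strand) for an arrangement with 1 NF-Y box.
Hmgcs1: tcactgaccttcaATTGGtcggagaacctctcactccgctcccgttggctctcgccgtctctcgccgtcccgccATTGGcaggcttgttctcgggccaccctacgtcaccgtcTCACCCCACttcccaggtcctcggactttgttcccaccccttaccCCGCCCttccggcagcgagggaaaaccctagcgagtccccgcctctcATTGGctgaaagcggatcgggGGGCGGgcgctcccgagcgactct
Mvk: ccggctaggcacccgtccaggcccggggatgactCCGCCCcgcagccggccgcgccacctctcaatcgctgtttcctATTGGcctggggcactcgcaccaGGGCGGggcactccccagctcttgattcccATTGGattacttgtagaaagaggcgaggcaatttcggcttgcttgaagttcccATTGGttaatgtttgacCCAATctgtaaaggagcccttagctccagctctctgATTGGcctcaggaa
Lss: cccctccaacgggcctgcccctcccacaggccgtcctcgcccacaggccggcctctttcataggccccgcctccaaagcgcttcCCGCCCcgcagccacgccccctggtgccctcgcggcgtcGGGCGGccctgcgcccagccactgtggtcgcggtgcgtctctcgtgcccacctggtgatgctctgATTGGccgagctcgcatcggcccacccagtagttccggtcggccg

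Library totals lay between 21040536 and 23986458 counts. Levels are given as CPM, counts per 1000000 after TMM scaling. *Uqcrq*, which encodes QPC, averaged 94.1 ± 13.3 CPM over the control libraries (SD, n = 4) and 21.3 ± 4.45 CPM over the mutant libraries (SD, n = 5). The progenitor markers were high in both genotypes, and 0 of 10 differed with an adjusted p under 0.05 (edgeR), where 2 had an unadjusted p under 0.05. Markers of other cell types were also counted. The stroma markers summed to 131 to 223 CPM in control and 286 to 767 CPM in mutant libraries, 6 of 10 tested being higher, and replicate 75 was highest. The myeloid markers summed to 2.70 to 15.9 CPM in control and 14.0 to 163 CPM in mutant libraries, 3 of 8 being higher, with replicate 77 highest and mutant replicate 74 below control replicate 76. Ureteric bud markers summed to 44.9 to 63.4 CPM in control and 27.3 to 49.4 CPM in mutant libraries, where 0 of 3 tested passed and 3 had an unadjusted p under 0.05. Endothelial markers summed to 2.88 to 5.98 CPM in control and 4.28 to 10.2 CPM in mutant libraries, and 1 of 5 tested was higher. The 1 erythroid marker tested did not pass (unadjusted p over 0.05). The defining genes *Ret* and *Wnt9b* of the ureteric bud and *Cdh5* of endothelium stayed under 1 CPM in all libraries. Even so, *Cdh5* was higher in every mutant library, with 0.098 to 0.724 CPM against 0 to 0.042 CPM in control. Other ureteric bud markers made up most of the sum given above. The markers of committed nephron cells summed to 298 to 538 CPM in control and 215 to 332 CPM in mutant libraries, and 2 of 5, *Wnt4* and *Lhx1*, were lower. An unadjusted p under 0.05 (edgeR) was found for 8 of 10 stroma, 8 of 8 myeloid and 4 of 5 committed nephron markers. It was found for 31.4% of all genes tested. In sorted bulk cells fewer cells of a type and less RNA per cell cannot be told apart.

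Transcripts of 9 of the 18 sterol enzymes were lower in mutant than in control cells. The median change on the log2 scale was −0.60 over the 7 mevalonate enzymes and −0.30 over the 11 enzymes from squalene to cholesterol. In the fatty acid branch the median was −0.29, the fitted value was lower for 4 of 5 genes, and none passed the test. With only 5 genes, the lack of a gene past the threshold does not show that this branch was unchanged. An adjusted p under 0.05 (edgeR quasi-likelihood test, Benjamini-Hochberg over all genes tested) was found for 9 of the 28 genes, all of them lower in mutant cells and all of them sterol enzymes. Among all 14990 genes tested, 14.8% passed in either direction, 7.02% as lower and 7.82% as higher. The median log2 fold change was −0.43 over the 18 sterol enzymes, −0.32 over the 28 genes and −0.01 over all genes tested. The TMM scaling holds the value over all genes near 0. The fitted value was lower in mutant cells for 16 of the 18 sterol enzymes, against 50.8% of all genes tested. The plot of fold changes in pathway order gives every gene with its standard error.

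**Figure D1:**
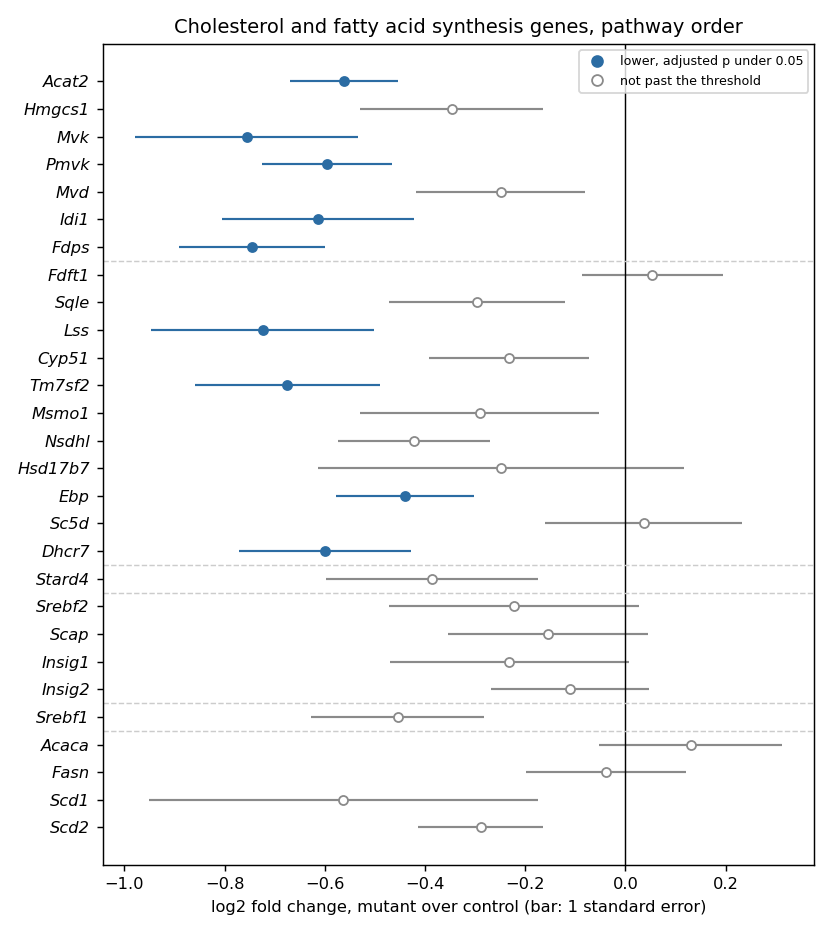
Log2 fold change of mutant over control cells for each of the 28 genes (horizontal axis), listed from the first enzyme of the pathway to the fatty acid enzymes. Filled points passed an adjusted p under 0.05, bars are 1 standard error, and dashed lines part the groups of genes. The 9 filled points lie between −0.76 and −0.44, and all belong to sterol enzymes.

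The number of the 28 genes past the threshold depended on the libraries, as did the share of all genes. It was 3 without control replicate 73, where 6.85% of all genes tested passed, and likewise 3 without mutant replicate 78, where 9% passed. With control replicate 71, 72 or 76 left out it was 5 each time, and 8.88%, 8.36% and 14.9% of all genes passed. It was also 5 with mutant replicate 75 or 79 left out, where 11% and 11.7% of all genes passed. Leaving out mutant replicate 77 gave 6 genes and 10.5% of all genes, and leaving out mutant replicate 74 gave 8 genes, 7 of them in the sterol branch, and 21.2% of all genes. Without both mutant replicate 75, which had the highest stroma sum, and mutant replicate 77, which had the highest myeloid sum but the lowest stroma sum of the mutant libraries, 4 of the 28 genes and 6.7% of all genes passed. In that fit the log2 fold changes of the genes that no longer passed were −0.77 for *Mvk*, −0.70 for *Idi1*, −0.62 for *Lss*, −0.55 for *Ebp* and −0.56 for *Dhcr7*, against −0.76, −0.61, −0.72, −0.44 and −0.60 with all libraries. *Acat2*, *Pmvk* and *Fdps* passed in all of these fits.

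The first steps of the pathway held most of the genes past the threshold, 5 of 7 mevalonate enzymes. *Acat2*, the cytosolic thiolase that joins 2 acetyl-CoA molecules, had 122, 116, 148 and 116 CPM in control replicates 71, 72, 73 and 76. It had 90.4, 79.3, 85.2, 82.0 and 88.2 CPM in mutant replicates 74, 75, 77, 78 and 79. All mutant libraries lay below all control libraries, and the mutant values were close together. The log2 fold change was −0.56 (standard error, SE, 0.11, edgeR adjusted p = 0.00587), so the transcript fell by 32.3%. *Acat2* lies on chromosome 17 from 12942890 to 12960747, and its paralog *Acat3* had 12 or fewer reads in each control and 13 or fewer in each mutant library.

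*Fdps* encodes farnesyl diphosphate synthase, at the branch point to sterols, prenyl groups and ubiquinone, and it had the highest transcript level per length of all 28 genes, 125 ± 21.2 FPKM in control cells (the authors' fragments per kilobase of gene and library total; SD, n = 4). It had 163, 120, 180 and 139 CPM in the control libraries. It had 83.1, 88.1, 97.8, 108 and 71.4 CPM in the mutant libraries, again with no overlap. The log2 fold change of −0.75 (SE 0.15, edgeR adjusted p = 0.00625) was a decrease, and the transcript fell by 40.4%. *Fdps* (chromosome 3, 89093592 to 89101967) shares 1124 exon bases with *Gm43738* on the same strand, which was not analysed here.

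*Pmvk* and *Mvk* encode the kinases that phosphorylate mevalonate in turn. *Pmvk* (chromosome 3, 89459118 to 89469013) had 65.2, 47.2, 51.2 and 54.6 CPM in control and 33.2, 38.5, 40.5, 35.6 and 32.7 CPM in mutant libraries, with no overlap. For *Pmvk* the log2 fold change was −0.60 (SE 0.13, edgeR adjusted p = 0.0104). *Mvk* (chromosome 5, 114444269 to 114460591) had 19.1, 17.2, 28.1 and 12.5 CPM in control and 14.2, 11.6, 11.7, 8.76 and 10.5 CPM in mutant libraries. The genotypes overlapped for *Mvk*, since mutant replicate 74 exceeded control replicate 76. Its log2 fold change of −0.76 (SE 0.22, edgeR adjusted p = 0.0381) was the lowest of the 28 genes in the fit. *Mvk* passed with control replicate 76 or mutant replicate 74 left out (adjusted p = 0.0149 and 0.0202) but not with any other library left out, where the adjusted p lay between 0.0616 and 0.157 and was largest without control replicate 73, and it missed the threshold with 1 surrogate variable (adjusted p = 0.0537).

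*Idi1*, the isomerase that makes the second 5-carbon building block, was also lower without overlap. It had 24.8, 25.1, 39.4 and 27.7 CPM in control libraries and 16.2, 18.51, 23.4, 23.2 and 14.4 CPM in mutant libraries. Control replicate 73 stood above the other control libraries, and the gap between the genotypes was narrow. The log2 fold change was −0.61 (SE 0.19, edgeR adjusted p = 0.0469). The call held without mutant replicate 77 (adjusted p = 0.0454) and was lost with any other library left out, with adjusted p between 0.0525 and 0.179, the largest again without control replicate 73, and it was lost under RLE normalization (adjusted p = 0.0509). *Idi1* lies on chromosome 13 from 8885501 to 8892451.

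The remaining mevalonate enzymes did not pass. *Hmgcs1*, the synthase that makes HMG-CoA and whose promoter held the sterol element shown above, had 74.7, 91.1, 131 and 91.1 CPM in control and 93.4, 55.1, 89.7, 78.02 and 65.3 CPM in mutant libraries. *Hmgcs1* had a log2 fold change of −0.35 (SE 0.18, edgeR adjusted p = 0.215), and the libraries of both genotypes interleaved. It passed with limma-voom (adjusted p = 0.0308), which called 32.4% of all genes. *Mvd*, the decarboxylase, had a log2 fold change of −0.25 (SE 0.17, edgeR adjusted p = 0.339).

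Of the 11 enzymes from squalene to cholesterol, 4 were lower and 7 did not pass. *Lss*, which closes squalene epoxide to lanosterol, had 16.0, 22.2, 26.3 and 12.8 CPM in control and 13.3, 9.34, 11.6, 9.64 and 14.6 CPM in mutant libraries. The genotypes overlapped through control replicate 76, and the log2 fold change was −0.72 (SE 0.22, edgeR adjusted p = 0.0443). *Lss* (chromosome 10, 76531588 to 76557138) passed without control replicate 76 or mutant replicate 74 or 79. Without control replicates 71, 72 or 73 its adjusted p was 0.0589, 0.117 and 0.165, and without mutant replicates 75, 77 or 78 it was 0.0883, 0.0797 and 0.0999. With 1 surrogate variable it was 0.0516 for *Lss*.

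*Tm7sf2*, a sterol reductase that acts after lanosterol demethylation, had 14.3, 15.6, 19.6 and 21.4 CPM in control and 8.82, 11.6, 13.8, 9.94 and 11.3 CPM in mutant libraries. It was the only enzyme of this stretch with no overlap between genotypes, and its log2 fold change was −0.67 (SE 0.18, edgeR adjusted p = 0.028). *Tm7sf2* (chromosome 19, 6062821 to 6068373) shares 532 exon bases with *Vps51* on the same strand, which leaves the origin of reads in that stretch uncertain. The call was lost without control replicate 73 (adjusted p = 0.0923), control replicate 76 (0.0744) or mutant replicate 78 (0.0679).

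*Dhcr7* encodes the reductase of a last step, and *Ebp* the sterol isomerase before it. *Dhcr7* had 19.7, 34.7, 35.1 and 34.5 CPM in control and 21.2, 20.9, 18.51, 20.8 and 20.9 CPM in mutant libraries. Control replicate 71 lay among the mutant libraries, while the other control libraries lay far above them. The log2 fold change of *Dhcr7* (chromosome 7, 143823145 to 143848410) was −0.60 (SE 0.17, edgeR adjusted p = 0.0331) with all libraries and −0.77 (adjusted p = 0.00758) without control replicate 71. It also passed without mutant replicate 74 (adjusted p = 0.0304). Without any other library it did not pass, with adjusted p from 0.0562 without mutant replicate 79 to 0.111 without control replicate 73.

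*Ebp* had 40.4, 30.1, 35.9 and 35.7 CPM in control and 24.3, 30.5, 27.9, 22.7 and 25.7 CPM in mutant libraries. Only control replicate 72 and mutant replicate 75 crossed, by less than 1 CPM. The log2 fold change of *Ebp* (chromosome X, 8185329 to 8193512) was −0.44 (SE 0.14, edgeR adjusted p = 0.0479), the smallest decrease past the threshold. Just outside the threshold stood *Nsdhl*, a dehydrogenase of sterol demethylation, with a log2 fold change of −0.42 (SE 0.15, edgeR adjusted p = 0.0747). *Ebp* passed without control replicate 72 or mutant replicate 75 (adjusted p = 0.0491 and 0.0428), and it did not pass with any other library left out, with adjusted p from 0.0593 to 0.119, nor under RLE normalization (0.0538) or with no filter on low counts (0.0889). *Nsdhl* passed without mutant replicate 77 (adjusted p = 0.0425), with limma-voom (0.0461) and with 1 surrogate variable (0.00964).

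**Figure D2:**
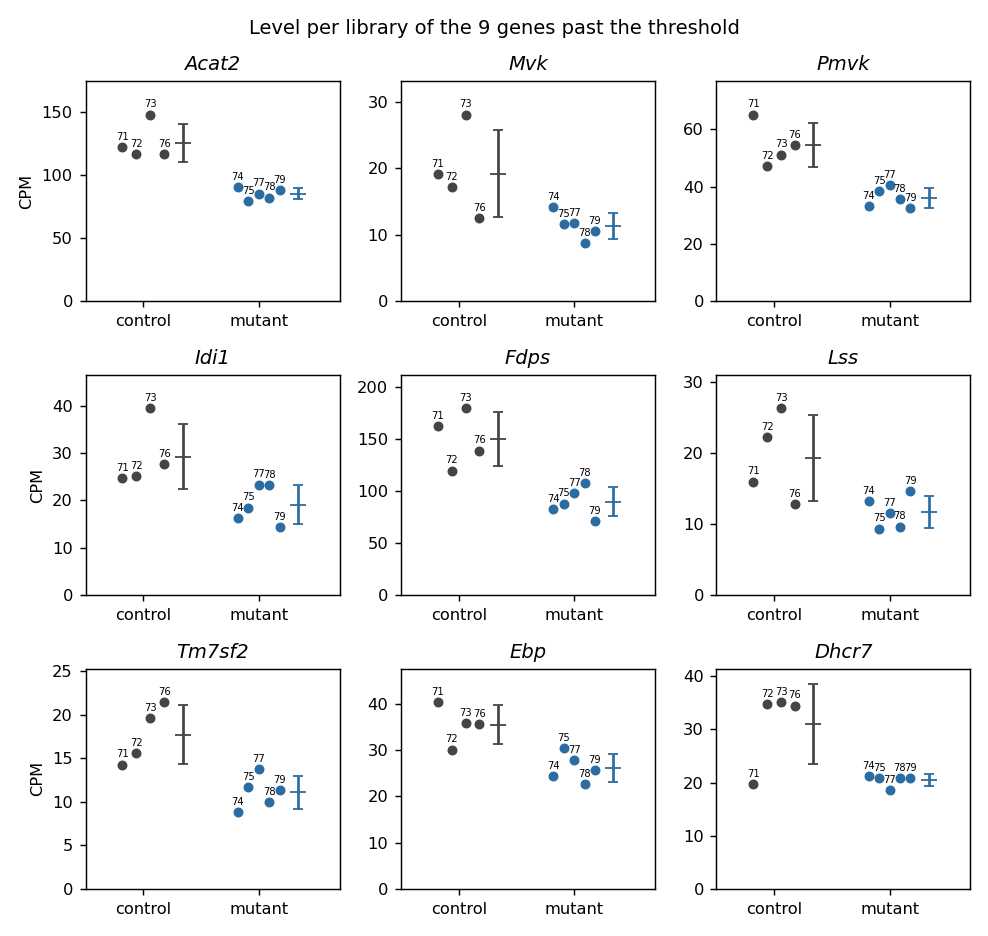
Level in CPM (vertical axis, from 0) of the 9 sterol enzymes past the threshold in each library, with replicate numbers above the points and the mean ± SD of each genotype beside them. *Acat2*, *Pmvk*, *Idi1*, *Fdps* and *Tm7sf2* do not overlap between the genotypes, and *Mvk*, *Lss*, *Ebp* and *Dhcr7* do.

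Separation of the genotypes was thus complete for 5 of the 28 genes, every mutant library being lower, and this holds for 7.73% of all genes tested. None of the 28 genes was higher in every mutant library, which holds for 7.5% of all genes tested.

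The other enzymes of this stretch did not pass, among them those of oxygen-consuming steps. *Sqle*, squalene epoxidase, had 55.2, 66.2, 102 and 67.0 CPM in control and 66.1, 45.2, 64.6, 64.4 and 55.5 CPM in mutant libraries. Apart from control replicate 73, the control libraries lay within or close to the mutant range, and the log2 fold change was −0.30 (SE 0.18, edgeR adjusted p = 0.269). *Cyp51*, the lanosterol demethylase, and *Msmo1*, the methylsterol oxidase, had log2 fold changes of −0.23 (SE 0.16) and −0.29 (SE 0.24). *Sc5d*, a sterol desaturase, averaged 47.0 ± 7.63 CPM over the control libraries (SD, n = 4) and 48.2 ± 13.2 CPM over the mutant libraries (SD, n = 5). *Fdft1*, squalene synthase, averaged 105 ± 13.7 CPM over the control libraries (SD, n = 4) and 109 ± 17.9 CPM over the mutant libraries (SD, n = 5), and its log2 fold change was 0.05 (SE 0.14). *Fdft1* and *Sc5d* were the only sterol enzymes with a fitted value above 0, and both fell below 0 with 1 surrogate variable, *Fdft1* also without control replicate 72 or mutant replicate 77 and *Sc5d* also without control replicate 73 or mutant replicate 74, 77 or 78. Reads of *Fdft1* may include some of *Ctsb*, which overlaps it on the opposite strand over 774 exon bases and had 425 CPM in control and 526 CPM in mutant cells, since the libraries did not keep the strand. *Hsd17b7*, a ketoreductase, varied widely, from 4.40 to 21.8 CPM in mutant and from 11.1 to 20.8 CPM in control libraries, and its log2 fold change of −0.25 had an SE of 0.37.

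The carrier and the regulators did not pass. *Stard4*, which moves cholesterol between membranes, had 12.7 to 15.3 CPM in control and 6.90 to 15.0 CPM in mutant libraries, with a log2 fold change of −0.39 (SE 0.21, edgeR adjusted p = 0.234). *Srebf2*, which encodes the main activator of sterol genes, spanned 57.3 to 107 CPM in control and 39.4 to 102 CPM in mutant libraries. With a log2 fold change of −0.22 (SE 0.25, edgeR adjusted p = 0.582), *Srebf2* varied more within each genotype than between them. *Scap*, the escort protein, had a log2 fold change of −0.15 (SE 0.20), and *Insig2*, a retention protein, of −0.11 (SE 0.16). *Insig1*, the other retention protein and a known SREBP target, had 28.1, 37.0, 47.8 and 35.7 CPM in control and 51.3, 21.7, 22.6, 33.4 and 29.0 CPM in mutant libraries. The highest of these 9 values of *Insig1* belonged to mutant replicate 74, and its log2 fold change was −0.23 (SE 0.24, edgeR adjusted p = 0.545). The log2 ratio of *Insig1* to *Insig2* counts averaged −1.49 ± 0.52 over the control (SD, n = 4) and −1.66 ± 0.72 over the mutant libraries (SD, n = 5), a difference of −0.16, smaller than either SD (2-sided exact permutation test, p = 0.714, adjusted p = 0.714 over 3 ratios). Without control replicate 73 the difference was 0.04, and without mutant replicate 75 it was 0.07.

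In the fatty acid branch, 0 of 5 genes passed in the edgeR test, 2 had an unadjusted p under 0.05 (31.4% of all genes tested did), and 0 passed with DESeq2. With limma-voom 2 passed, *Srebf1* (adjusted p = 0.00711) and *Scd2* (0.0149). *Srebf1*, the main SREBP gene for fatty acid synthesis, was the closest, with 65.3, 93.5, 89.1 and 73.2 CPM in control and 69.1, 41.8, 57.6, 49.8 and 74.4 CPM in mutant libraries. The genotypes overlapped through mutant replicates 74 and 79, and the log2 fold change of *Srebf1* was −0.45 (SE 0.17, edgeR adjusted p = 0.0886). It passed without mutant replicate 74 (adjusted p = 0.0482). The log2 ratio of *Srebf1* to *Srebf2* counts averaged 0.08 ± 0.23 over the control (SD, n = 4) and −0.15 ± 0.27 over the mutant libraries (SD, n = 5) (2-sided exact permutation test, p = 0.214, adjusted p = 0.643 over 3 ratios).

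*Acaca*, the acetyl-CoA carboxylase that commits carbon to fatty acids, averaged 13.7 ± 2.39 CPM over the control libraries (SD, n = 4) and 15.0 ± 2.56 CPM over the mutant libraries (SD, n = 5). *Fasn*, fatty acid synthase, averaged 65.3 ± 3.50 CPM over the control libraries (SD, n = 4) and 63.5 ± 14.8 CPM over the mutant libraries (SD, n = 5). Both differences were well within the spread of the mutant libraries, with log2 fold changes of 0.13 (SE 0.18) for *Acaca* and −0.04 (SE 0.16) for *Fasn*. The sign of *Fasn* turned without mutant replicate 75 (0.02) and without mutant replicate 77 (0.06).

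Of the stearoyl-CoA desaturases, which make monounsaturated fatty acids, *Scd2* was by far the more abundant per length, with 61.8 ± 3.79 FPKM against 0.981 ± 0.544 FPKM for *Scd1* in control cells (SD, n = 4). *Scd2* had 307, 324, 336 and 334 CPM in control and 305, 265, 210, 242 and 309 CPM in mutant libraries. The control values were close together and the mutant values were spread below and up to them, with a log2 fold change of −0.29 (SE 0.12, edgeR adjusted p = 0.133). *Scd1* rested on 53 to 186 reads in control and 33 to 114 reads in mutant libraries, with a log2 fold change of −0.56 (SE 0.39, edgeR adjusted p = 0.347). The log2 ratio of *Scd1* to *Scd2* counts averaged −6.31 ± 0.81 over the control (SD, n = 4) and −6.50 ± 0.59 over the mutant libraries (SD, n = 5) (2-sided exact permutation test, p = 0.69, adjusted p = 0.714 over 3 ratios). Without control replicate 73 the difference between the genotypes turned from −0.19 to 0.11.

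Libraries of 1 genotype also differed in the level of the sterol enzymes. Control replicate 73 had the highest value of the 4 control libraries for 12 of the 18 sterol enzymes and the highest of all 9 libraries for 11, whereas it was the highest control for 17.9% and the highest of all 9 for 8.95% of all genes tested. Relative to the mean log2 CPM of the control libraries, the median of the 18 enzymes was 0.26 in control replicate 73 and between −0.14 and −0.04 in the other control libraries. It was −0.48, −0.57, −0.21, −0.34 and −0.54 in mutant replicates 74, 75, 77, 78 and 79, so all mutant libraries lay below all control libraries. The same median over all genes tested stayed between −0.02 and 0.01 in the 9 libraries, which TMM scaling over these genes largely sets.

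Markers of other cell types are given for the same libraries. The committed nephron markers summed to 451, 460, 538 and 298 CPM in control replicates 71, 72, 73 and 76 and to 241, 215, 332, 263 and 250 CPM in mutant replicates 74, 75, 77, 78 and 79. Control replicate 73 was highest and mutant replicate 75 lowest for both these markers and the sterol enzymes, whereas control replicate 76, with a sterol enzyme median of −0.04, had fewer of these markers than mutant replicate 77. Mutant replicate 74, with a median of −0.48 over the sterol enzymes, had the lowest myeloid sum of the mutant libraries, 14.0 CPM, within the control range of 2.70 to 15.9 CPM. Mutant replicate 77, with the highest median of −0.21, had the highest myeloid sum of 163 CPM and the lowest stroma sum of 286 CPM. Mutant replicate 75, with the lowest median of −0.57, had the highest stroma sum of 767 CPM. The part of committed nephron, stroma and myeloid cells in the lower sterol transcripts was not tested.

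**Figure D3:**
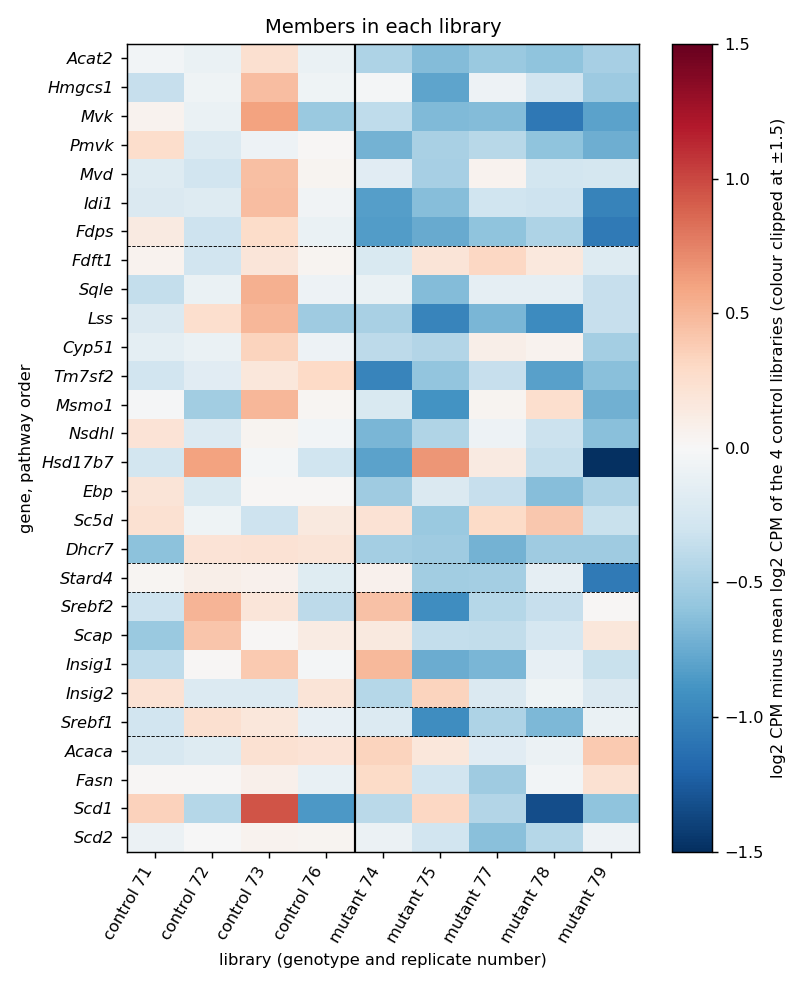
Each of the 28 genes (rows, pathway order) in each of the 9 libraries (columns), as log2 CPM minus the mean log2 CPM of the control libraries. Red is higher and blue is lower, and colours are clipped at ±1.5. The mevalonate rows are blue in nearly all mutant libraries, and control replicate 73 is red over most sterol enzymes. The rows of the sterol regulators and of *Acaca*, *Fasn* and *Scd1* are mixed. Those of *Srebf1* and *Scd2* lie below 0 in all mutant libraries, in some only slightly.

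Other genes of lipid synthesis and sterol handling were counted in the same fit. Of 34 such genes, 3 were lower, 3 were higher and 28 did not pass. The share called in either direction, 17.6%, is close to the 14.8% of all genes tested, and nothing is read from these counts.

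*Mylip* encodes the ubiquitin ligase IDOL, which marks lipoprotein receptors for degradation. It had 31.9, 41.6, 43.6 and 38.7 CPM in control and 64.3, 56.5, 64.4, 49.8 and 71.5 CPM in mutant libraries, which gave a log2 fold change of 0.65 (SE 0.14, edgeR adjusted p = 0.00952). *Soat1*, the enzyme that esterifies cholesterol for storage, had 60.4, 65.2, 62.0 and 61.3 CPM in control and 90.0, 104, 106, 104 and 95.0 CPM in mutant libraries. *Soat1* showed little spread within either genotype, and its log2 fold change was 0.68 (SE 0.10, edgeR adjusted p = 0.00165). Neither gene overlapped between genotypes, and both kept an adjusted p under 0.05 with any 1 library left out.

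The desaturases and elongases of polyunsaturated fatty acids did not move one way. *Fads2* had 18.4, 31.1, 25.9 and 14.0 CPM in control and 12.5, 4.34, 9.03, 9.99 and 7.40 CPM in mutant libraries, which gave a log2 fold change of −1.37 (SE 0.29, edgeR adjusted p = 0.00893). *Fads1*, its neighbor on chromosome 19 and the next desaturase of the pathway, had a log2 fold change of −0.65 (SE 0.18, edgeR adjusted p = 0.0326), with overlap between genotypes. *Fads1* did not pass without control replicate 71, 72 or 73 or mutant replicate 75, 77 or 78, with adjusted p between 0.0615 and 0.106. *Elovl5*, an elongase of the same fatty acids, was higher in all mutant libraries, averaging 106 ± 12.4 CPM over the control libraries (SD, n = 4) and 155 ± 22.0 CPM over the mutant libraries (SD, n = 5), with a log2 fold change of 0.54 (SE 0.13, edgeR adjusted p = 0.0149). Without mutant replicates 75 and 77 *Elovl5* did not pass (log2 fold change 0.45, adjusted p = 0.0644), nor did *Fads1* (−0.48, adjusted p = 0.166). *Mlxipl*, which encodes the carbohydrate-responsive activator ChREBP, had the largest decrease among these genes, a log2 fold change of −1.70 (SE 0.45, edgeR adjusted p = 0.0248), from 4.56 to 14.7 CPM in control to 0.984 to 4.56 CPM in mutant libraries. The call of *Mlxipl* was lost without control replicate 72 (log2 fold change −1.29, adjusted p = 0.0928) or control replicate 73 (−1.68, adjusted p = 0.0636), or without both mutant replicates 75 and 77 (−1.49, adjusted p = 0.0985).

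**Figure D4:**
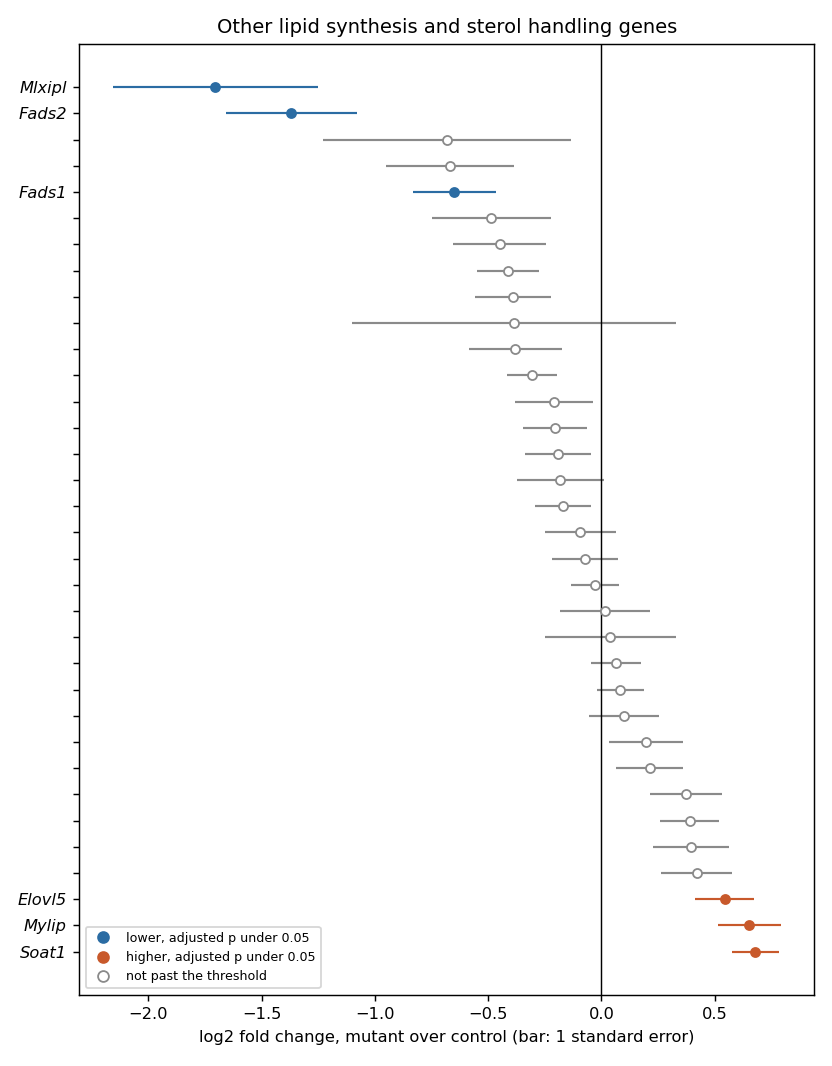
Log2 fold change of mutant over control cells for 34 further genes of lipid synthesis and sterol handling, sorted from lowest to highest. Filled points passed an adjusted p under 0.05 (blue lower, orange higher) and bars are 1 standard error. Only genes past the threshold are named, of which *Mlxipl*, *Fads2* and *Fads1* are lower and *Elovl5*, *Mylip* and *Soat1* are higher.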

How the data were processed

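RNA from sorted eGFP+ cells of 4 control and 5 mutant preparations had been amplified from low input, selected for poly(A) and sequenced without strand information. The authors deposited raw read counts per gene for each library, and the submitters' processing notes name STAR, DESeq2 and build mm10 without versions. The counter and annotation are not given in the sources used here. The authors also deposited FPKM values, which equal counts divided by gene length and library total within 0.1% for 100% of values and were used here only to compare levels between genes. The table also holds the authors' mean signal, fold changes and p-values, which were not used.

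Counts of 26858 genes were filtered by filterByExpr (14990 genes kept), normalized by TMM and compared with the quasi-likelihood test of edgeR 4.0.16 with robust estimation in R 4.3.3, with a threshold of 0.05 on the Benjamini-Hochberg adjusted p. Standard errors were taken as the fold change on the log2 scale over the root of the F statistic. Library totals were 21040536 to 23986458 counts, and the shares of counting error and of spread between libraries were not compared. Ratios within a library used counts + 0.5 and an exact permutation test over 126 splits, whose smallest p is 0.00794. The procedure was tested on simulated data.

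Genes were matched by symbol. The table's gene identifier was that of GENCODE M21 for 27 of the 28 genes, *Hmgcs1* being the exception, and gene coordinates are those of the table. Exon overlaps come from GENCODE M21 and promoters from RefSeq. The 28 genes, the 34 further genes, the marker lists, the motifs and the tests were chosen with earlier results of these data known. All 28 genes are named, and of the further genes those past the threshold. Some further genes and markers are not reported here. Alternatives were DESeq2 1.42.0, limma-voom with quality weights (limma 3.58.1), normalization by RLE or by the upper quartile, a looser filter (genes with any count) and a stricter one (10 or more counts in each library), 1 surrogate variable (sva 3.50.0), a threshold of 0.1, counts + 5 for ratios and leaving out each library. Leaving out mutant replicates 75 and 77 together was chosen after seeing the data. Figures used matplotlib 3.10.9.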

Additional observations from a re-analysis of the deposited data

Results flagged for a closer look

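Most genes named above, but not the marker genes, were screened for a library far from the others of its genotype. In this screen chance alone flags about 1 in 20 groups. Outside the screen, the marker *Wnt4* had 113 CPM in control replicate 76 against 262 CPM or more in the other control libraries. Of 76 groups, 4 were flagged, against 3.8 that chance gives. Control replicate 71 was low for *Dhcr7*, at 19.7 CPM against 34.5 CPM or more in the other control libraries. Mutant replicate 77 was low for *Dhcr7*, at 18.51 CPM against 20.8 CPM or more in the other mutant libraries. Control replicate 73 was high for *Cyp51*, at 75.2 CPM against 56.7 CPM or less in the other control libraries. Mutant replicate 75 was high for *Elovl5*, at 193 CPM against 153 CPM or less in the other mutant libraries.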

How the results depend on the processing

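No paired analysis was possible because the labels give no litter or batch by which control and mutant libraries could be paired. Of the 28 genes, 7 passed under RLE normalization, 9 under upper-quartile normalization, 8 with no filter, 9 with the stricter filter, 9 with DESeq2 and 8 with 1 surrogate variable. In that order 2231, 2192, 1975, 2128, 3213 and 3111 of all genes passed. These were 14.9%, 14.6%, 7.35%, 16.5%, 12% and 20.8% of those tested, or with DESeq2 of all genes in the fit. The genes tested were 26858 with no filter, 12922 with the stricter filter and 14990 in the rest apart from DESeq2. For DESeq2 the share is of all 26858 genes, and any that it left without an adjusted p were not taken out. Its share of genes with an adjusted p may thus be larger. With limma-voom the counts were 4858 of all genes (32.4% of those tested), 13 of the 28 genes, 11 in the sterol branch, 2 in the fatty acid branch and 15 of the further lipid genes. With a threshold of 0.1 they were 3565 (23.8%), 11, 10, 1 and 10. Without mutant replicates 75 and 77, an alternative chosen after seeing the data, they were 1017, 4, 4, 0 and 3. With 1 library left out they ranged from 1046 (without control 73) to 3136 (without mutant 74), 3 to 8, 3 to 7, 0 to 1 and 4 to 11. The cause was not tested. Log2 fold changes that turned sign were small. With 1 surrogate variable they were −0.0747 for *Fdft1*, −0.0066 for *Sc5d*, 0.0471 for *Srebf2*, 0.0075 for *Scap* and 0.0619 for *Fasn*, and with limma-voom 0.0107 for *Insig2* and −0.0301 for *Acaca*. Without mutant replicates 75 and 77 they were −0.0779 for *Fdft1*, 0.035 for *Srebf2*, 0.0377 for *Insig1* and 0.1717 for *Fasn*. With 1 library left out, *Fdft1* ranged from −0.0332 to 0.117, *Sc5d* from −0.0669 to 0.1564, *Fasn* from −0.1338 to 0.0637, the ratio of *Scd1* to *Scd2* from −0.484896 to 0.111749 and that of *Insig1* to *Insig2* from −0.431328 to 0.0661495. The spread between libraries, with 4 and 5 per genotype, limits the precision of all these values.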
